A study of Homo sapiens with 6 samples.

Results

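A set of 10 transcripts that encode the kinases of RNA polymerase II and their partners was measured in NGP cells, an established human neuroblastoma line with amplified MYCN. They are CDK7, CCNH and MNAT1, CDK9, CCNT1 and CCNT2, CDK12, CDK13 and CCNK, and HEXIM1. They were matched to the count table by gene symbol, and all 10 were found among its 19863 rows and passed the filter for low counts, as did 14402 rows in all. Cells received OTSSP167 at 60 nM for 12 h, or the solvent DMSO alone in the control group, with 3 libraries per group and no other agent or genetic change named in the labels for either. OTSSP167 inhibits several kinases and is best known as a MELK inhibitor; the series title calls it an inhibitor of CAMKV. NGP is 1 cell line. Whether each library had its own culture is not stated in the labels, and the p-values reflect only the scatter among these libraries, which could be technical.

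RNA polymerase II is steered through transcription by phosphorylation of the repeated tail of its largest subunit. CDK7, with cyclin H and the assembly factor MAT1, forms the kinase module of the general factor TFIIH; it acts at initiation and also activates other cyclin-dependent kinases. CDK9 with cyclin T1 or cyclin T2 forms P-TEFb, which releases paused polymerase into elongation, and HEXIM1 holds P-TEFb inactive in a ribonucleoprotein built on the 7SK RNA. CDK12 and CDK13, each with cyclin K, act during elongation. CDK7, CDK9 and CDK12 have been studied as drug targets in MYCN-amplified neuroblastoma.

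Levels are CPM, counts relative to the library total, scaled between libraries with TMM factors, and fold changes and tests are those of edgeR's quasi-likelihood fit over all 14402 genes with Benjamini-Hochberg adjustment; a gene passed at an adjusted p under 0.05. On such a relative scale, a change in the total amount of RNA, through RNA per cell or cell number, does not show. Library totals ran from 36401828 to 57460375 counts. Adrenergic neuroblastoma markers were present, with a summed level of 9578 to 9868 CPM in DMSO and 6544 to 6644 CPM in OTSSP167 over 10 of 10 markers, of which 2 rose and 4 fell. Most of that sum was the amplified MYCN (7544 and 4495 CPM); GATA3 and CHGB rose, and TH, the first enzyme of catecholamine synthesis, stood at only 0.266 and 0.148 CPM. Tested markers of other cells summed to 120 to 140 and 126 to 127 CPM for 5 of 8 fibroblast and endothelial genes, 5.38 to 6.39 and 6.91 to 10.5 CPM for 4 of 7 Schwann and glial genes, and 0.723 to 1.43 and 18.5 to 21.0 CPM for 2 of 6 immune genes. The fibroblast and glial sums hold genes that moved in opposite directions. THY1 rose from 38.7 to 91.2 CPM while PDGFRB fell from 73.8 to 27.1 CPM. ERBB3 rose from 0.0884 to 6.85 CPM while GFAP and FOXD3 fell. Both tested immune genes rose, CD14 from 0.391 to 14.2 CPM and CD74 from 0.664 to 5.56 CPM. SOX10 and CD3E were at 0 in every library. The part of these markers in the results on the kinases was not tested.

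Of the 10 transcripts, 1 passed the test: CCNT1, which rose 2.25-fold. Over all genes, 46.1% passed, 23.8% higher and 22.3% lower with OTSSP167. The 9 others had adjusted p-values from 0.0619 to 0.996, and their intervals were mostly wide. CDK9, CDK12 and CDK13 had estimates of 0.58 to 0.61 of the DMSO level and adjusted p-values just above the threshold, CCNK had an estimate of 2.102-fold with a wide interval, and HEXIM1 was measured tightly at 0.90 of its DMSO level. Unadjusted p-values under 0.05 were found for 4 members (CCNT1, CDK9, CDK12 and CDK13) and for 54.0% of all genes. OTSSP167 libraries lay entirely on one side of the DMSO libraries for 5 members, CCNT1 and CCNK above and CDK9, CDK12 and HEXIM1 below, and for 60.4% of all genes. DESeq2 called 4 members, CCNT1 higher and CDK9, CDK12 and CDK13 lower, where it called 48.6% of all genes; limma-voom called CCNT1 alone, where it called 49.0%.

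**Figure D1:**
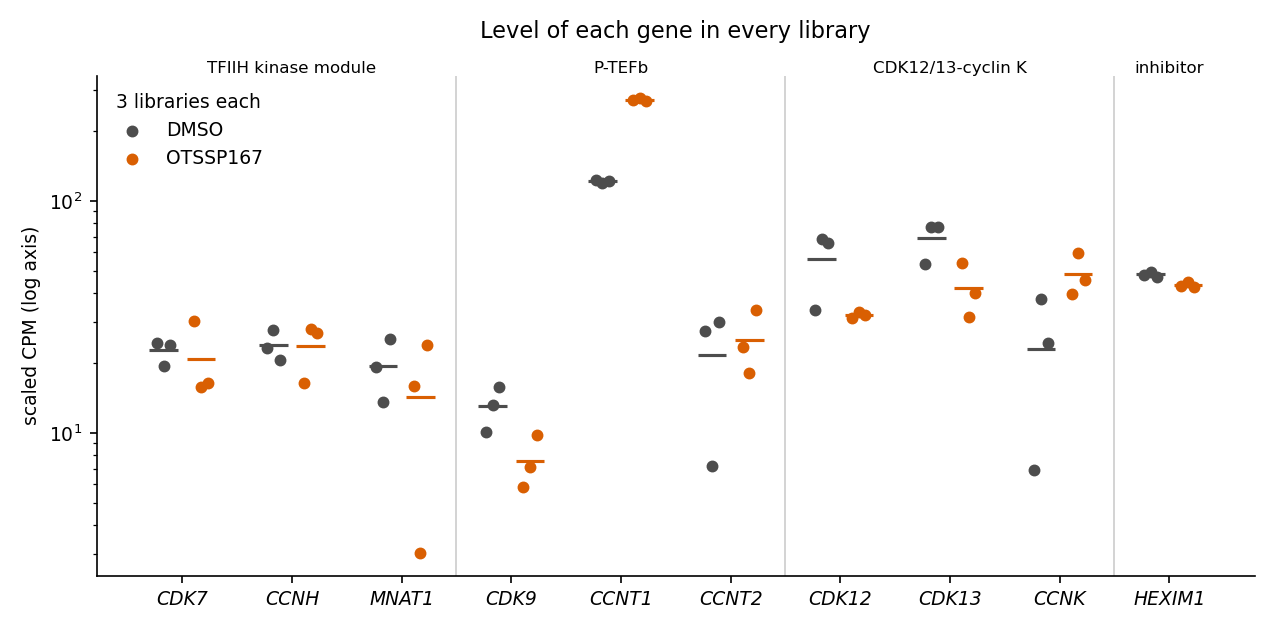
Level of each gene in every library as scaled CPM on a log axis, with DMSO in grey and OTSSP167 in orange; short lines are group means of 3 libraries. The CCNT1 libraries form tight clusters near 121 and 273 CPM, while single libraries of CCNT2, CCNK and MNAT1 lie far below the others of their group.

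Among the P-TEFb genes, CCNT1 encodes cyclin T1, the regulatory subunit that binds CDK9, and is also the cellular cofactor of the HIV Tat protein. It measured 123, 119 and 122 CPM in DMSO replicates 1 to 3 and 273, 276 and 271 CPM in OTSSP167 replicates 1 to 3. The groups were far apart, and within each group the highest library exceeded the lowest by a factor of only 1.03 and 1.02. The fitted log2 fold change was 1.17 (SE 0.03, 95% CI 1.09 to 1.25, edgeR adjusted p = 1.86e-05, n = 3 per group), and CCNT1 ranked as number 48 of 14402 genes by p. It also passed the test for a change beyond 1.5-fold (glmTreat in edgeR, adjusted p = 0.000155), as did 19.6% of all genes. Over 14 alternative settings its log2 fold change lay between 1.15 and 1.27. CCNT1 (chromosome 12, 48688458 to 48716998, minus strand, GRCh38) shares 0 of 7377 stretches of 50 bases in its annotated transcripts with any other gene of GENCODE release 29.

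Promoter windows of CCNT1, of its paralogue CCNT2 and of HEXIM1 are shown because these genes encode alternative cyclins and the inhibitor of the same kinase. Only CCNT1 passed the test, and a difference in response between CCNT1 and CCNT2 was not shown. For CCNT1, RefSeq has another window (chr12:48696189-48696488), which holds no match to any of the motifs searched and is not shown. Each window runs from 250 bases before to 50 bases after the RefSeq start (GRCh38.p14), and capitals mark matches, on either strand, to the motifs CACGTG (E-box, bound by MYC and MYCN with MAX), CCAAT, TGACGTCA (the cAMP response element bound by CREB), TATAAA or GGGCGG (GC box). Such a match is a description of letters and not a binding site.
CCNT1, chr12:48716658-48716957, minus strand: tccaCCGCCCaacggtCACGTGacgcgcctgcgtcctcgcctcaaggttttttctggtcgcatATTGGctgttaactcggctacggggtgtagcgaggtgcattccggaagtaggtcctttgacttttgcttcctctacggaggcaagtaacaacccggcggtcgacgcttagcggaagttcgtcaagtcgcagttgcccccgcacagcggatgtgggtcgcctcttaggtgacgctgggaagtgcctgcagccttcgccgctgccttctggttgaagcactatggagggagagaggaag
CCNT2, chr2:134918572-134918871, plus strand: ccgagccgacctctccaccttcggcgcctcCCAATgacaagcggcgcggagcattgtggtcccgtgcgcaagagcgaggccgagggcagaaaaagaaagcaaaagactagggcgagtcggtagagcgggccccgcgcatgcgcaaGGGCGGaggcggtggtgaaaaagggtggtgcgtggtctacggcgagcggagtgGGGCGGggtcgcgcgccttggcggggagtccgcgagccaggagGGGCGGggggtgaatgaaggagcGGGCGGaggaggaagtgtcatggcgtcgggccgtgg
HEXIM1, chr17:45148225-45148524, plus strand: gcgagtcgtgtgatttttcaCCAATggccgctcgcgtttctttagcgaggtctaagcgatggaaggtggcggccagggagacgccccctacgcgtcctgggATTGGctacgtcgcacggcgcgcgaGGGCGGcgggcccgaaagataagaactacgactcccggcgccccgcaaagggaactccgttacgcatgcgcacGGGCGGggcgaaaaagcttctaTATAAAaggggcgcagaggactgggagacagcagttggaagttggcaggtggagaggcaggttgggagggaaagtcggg
The CCNT1 window holds an E-box that begins 234 bases before the start, beside a GC box at 246 and a CCAAT match at 187. The CCNT2 window holds 4 GC boxes and a CCAAT match but no E-box. In GENCODE release 29 both genes begin further upstream, CCNT1 at 48716998 and CCNT2 at 134918235. Both windows thus lie within the GENCODE gene bounds, and these distances hold for the RefSeq starts only. The HEXIM1 window has a TATA match 29 bases before the start, the only one among the 10 members, with 2 GC boxes and 2 CCAAT matches. Over the windows of the 10 members, which all matched by symbol, an E-box was found for 2 (CCNT1 and CDK7), CCAAT for 4, GGGCGG for 8 and the cAMP response element for 0. Of 35116 human promoter windows of the same length, 7.26% hold the E-box, 34.6% CCAAT, 45.0% GGGCGG, 11.5% TATAAA and 1.85% the cAMP response element. Members were counted per gene, with a match in any of its windows, whereas these shares are per window. CDK7, CCNT1 and CDK13 have more than 1 window, so the counts and shares are not like for like.

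CCNT2 encodes cyclin T2, the alternative partner of CDK9. It measured 27.5, 7.17 and 30.0 CPM in DMSO and 23.4, 18.1 and 33.9 CPM in OTSSP167. DMSO replicate 2 was the lowest library of all, and the groups overlapped. Its log2 fold change was 0.22 (95% CI -1.20 to 1.65, edgeR adjusted p = 0.774), and it had the other sign, -0.20, without DMSO replicate 2 and -0.054 without OTSSP167 replicate 3. This interval contains the size of the CCNT1 change, so whether the paralogues differ in response was compared within each library.

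CDK9, the catalytic subunit of P-TEFb, had the lowest mean scaled count of the 10 transcripts in both groups, although single libraries of MNAT1, CCNK and CCNT2 were lower. It measured 10.04, 13.2 and 15.8 CPM in DMSO and 5.84, 7.15 and 9.77 CPM in OTSSP167. Each OTSSP167 library was below each DMSO library, though the lowest DMSO and highest OTSSP167 libraries nearly met. Its log2 fold change came to -0.78 (SE 0.27, 95% CI -1.45 to -0.11, edgeR adjusted p = 0.0619). DESeq2 called CDK9 (adjusted p = 0.0229), as did edgeR once OTSSP167 replicate 3 was left out (-1.002, adjusted p = 0.0391), and the alternatives spanned 0.0229 to 0.159.

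HEXIM1, the inhibitor of P-TEFb, is named for its induction by hexamethylene bisacetamide. It measured 48.0, 49.3 and 47.2 CPM in DMSO and 43.0, 44.9 and 42.5 CPM in OTSSP167. All OTSSP167 libraries were lower, by a small margin. The estimate was -0.15 in log2 (SE 0.07, 95% CI -0.32 to 0.021, edgeR adjusted p = 0.128), an interval that leaves out decreases larger than 0.32, and adjusted p-values ran from 0.0713 (DESeq2) to 0.601 over the alternatives. HEXIM1 (chromosome 17, 45148502 to 45152101) is a gene without introns in this annotation, and 13.3% of its 50-base stretches are shared with an antisense transcript.

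HEXIM2, the second HEXIM gene, lies 8598 bp downstream on the same strand and encodes a paralogue that can take the place of HEXIM1 in the 7SK particle. It rose from 7.68, 8.61 and 9.61 CPM in DMSO to 20.0, 18.5 and 16.5 CPM in OTSSP167 (1.09 in log2, with an SE of 0.15 and an edgeR adjusted p of 0.0026). Reads of antisense genes over HEXIM2, which hold 44.4% of its 50-base stretches, cannot be told apart where strand was not used in counting.

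**Figure D2:**
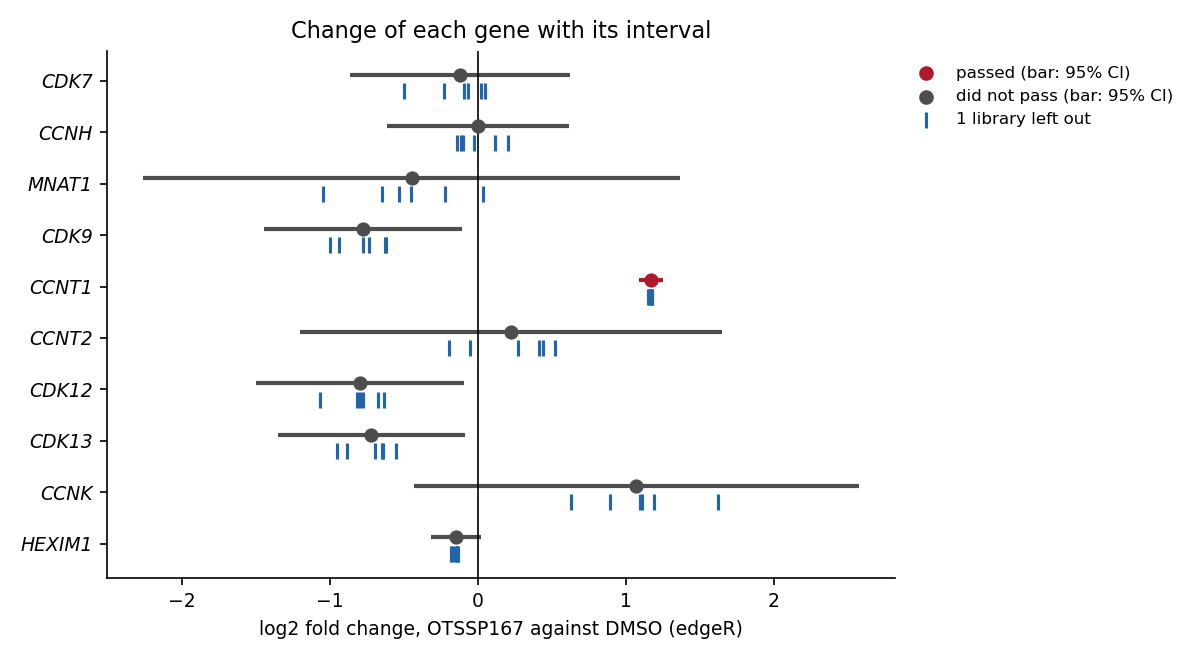
Log2 fold change of each gene, OTSSP167 against DMSO, with its 95% confidence interval (red where the gene passed, grey where it did not) and, below each, the 6 estimates with 1 library left out in blue. The CCNT1 interval spans 1.09 to 1.25 and its 6 estimates coincide; those of MNAT1 run from -1.05 to 0.031.

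CDK12 and CDK13 are paralogous kinases that bind cyclin K; CDK12 is known for supporting the expression of long genes, many of them in DNA repair. CDK12 measured 33.7, 68.4 and 66.0 CPM in DMSO and 31.3, 33.1 and 32.3 CPM in OTSSP167. DMSO replicate 1 stood close to the treated libraries and apart from the other controls. The log2 fold change was -0.80 (SE 0.28, 95% CI -1.50 to -0.092, edgeR adjusted p = 0.0663). With DMSO replicate 1 left out it was -1.07 and passed (edgeR adjusted p = 0.00186), and DESeq2 also called it (adjusted p = 0.0283); all alternatives together spanned 0.00186 to 0.164.

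CDK13 measured 53.2, 77.0 and 77.0 CPM in DMSO and 54.1, 31.4 and 40.1 CPM in OTSSP167. The groups overlapped, since DMSO replicate 1 was just below OTSSP167 replicate 1. Its estimate was -0.72 in log2 (SE 0.25, 95% CI -1.35 to -0.09, edgeR adjusted p = 0.0646). DESeq2 called CDK13 (adjusted p = 0.0303), as did edgeR once OTSSP167 replicate 1 was left out (-0.95, adjusted p = 0.0336), and the alternatives spanned 0.0303 to 0.158.

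CCNK encodes cyclin K, the partner of both kinases. It measured 6.94, 37.7 and 24.3 CPM in DMSO and 39.7, 59.6 and 45.7 CPM in OTSSP167. All treated libraries were above all controls, but DMSO replicate 1 was far below the other controls. In log2 the estimate was 1.07 (SE 0.60, 95% CI -0.43 to 2.58, edgeR adjusted p = 0.201); it was 0.63 without DMSO replicate 1 and 1.63 without DMSO replicate 2, and did not pass in any of 14 alternatives. CCNK (chromosome 14, 99481169 to 99535044, plus strand) overlaps CCDC85C on the opposite strand, whose transcripts hold 55.4% of its 50-base stretches. CCDC85C stood at 217, 209 and 213 CPM in DMSO and 205, 219 and 193 CPM in OTSSP167, so the counts of CCNK were 0.0319 to 0.271 of those of a gene with which it may share reads, and its values are uncertain.

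None of the 3 genes of the TFIIH kinase module passed, and none had groups that were apart. CDK7, the kinase, measured 24.5, 19.5 and 23.97 CPM in DMSO and 30.4, 15.7 and 16.3 CPM in OTSSP167. One treated library was above and the others below every control. Its log2 fold change was -0.12 (95% CI -0.87 to 0.62, edgeR adjusted p = 0.763).

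CCNH, which encodes cyclin H, measured 23.2, 27.7 and 20.5 CPM in DMSO and 16.4, 28.0 and 26.9 CPM in OTSSP167, with overlapping groups. Its estimate was -0.0019 in log2 (95% CI -0.62 to 0.61, edgeR adjusted p = 0.996), an interval that includes changes of 1.5-fold either way. CCNH overlaps RASA1 on the opposite strand over 73516 bp, and RASA1 transcripts hold 9.87% of its 50-base stretches; RASA1, a GTPase-activating protein of RAS, fell from 49.8 ± 2.48 to 29.8 ± 7.32 CPM (n = 3, edgeR adjusted p = 0.0267). This RASA1 call was lost with any 1 DMSO library or OTSSP167 replicate 2 left out (adjusted p = 0.0559 to 0.0734), and all alternatives spanned 0.00317 to 0.0734.

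MNAT1 encodes MAT1, the third subunit of the module. It measured 19.3, 13.6 and 25.4 CPM in DMSO and 15.8, 3.03 and 23.9 CPM in OTSSP167. OTSSP167 replicate 2 was the lowest library, with 173 counts, and the groups overlapped. The log2 fold change was -0.45 (95% CI -2.26 to 1.37, edgeR adjusted p = 0.645), and 0.031 without OTSSP167 replicate 2.

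The spread between libraries, not counting error, set these intervals for most members. Member counts ran from 173 to 15766 per library, for which counting alone gives a coefficient of variation of 0.927 to 5.66%. CCNT1 and HEXIM1 were at that limit: their libraries varied by 1.54 and 1.05% (CCNT1) and 2.26 and 2.90% (HEXIM1) in DMSO and OTSSP167. CDK12 varied by 2.83% in OTSSP167 but by 34.6% in DMSO, which is 17.2 times its counting error. The counting values cover counting error only. They take the deposited numbers as read counts, although the counting tool was not given. At least 1 group ranged over 2-fold for 4 of the 10 members, beside 35.3% of all genes. The largest spreads were 73.8% for MNAT1 in OTSSP167, 67.2% for CCNK in DMSO and 58.1% for CCNT2 in DMSO.

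**Figure D3:**
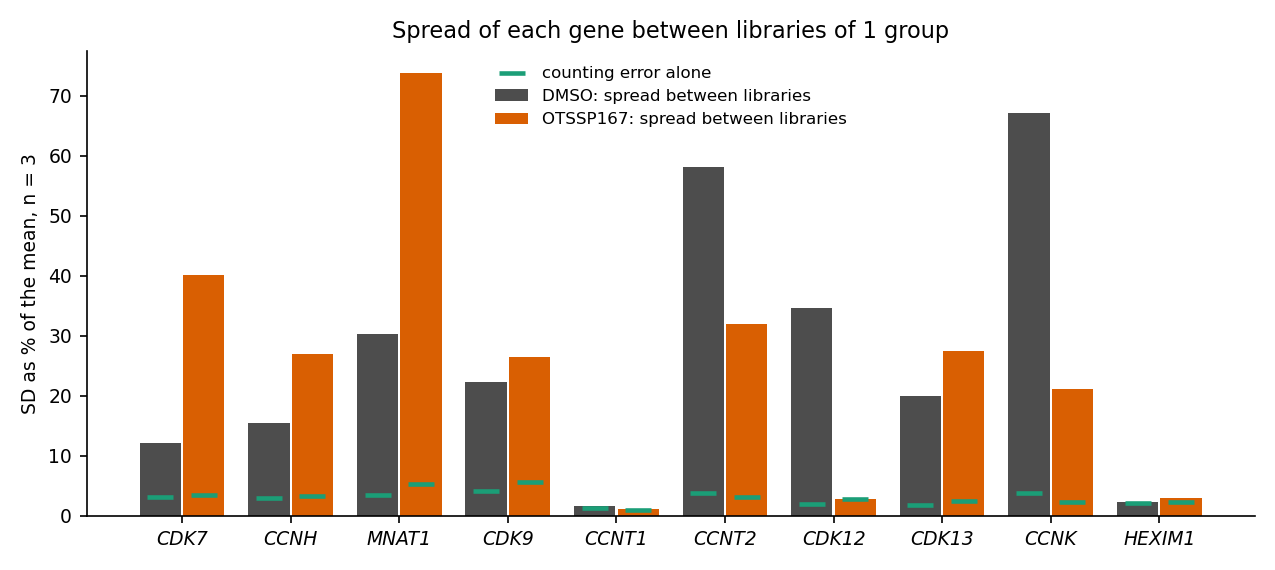
Standard deviation of each gene between the 3 libraries of a group as a percentage of its mean (bars; grey DMSO, orange OTSSP167), with the percentage that counting error alone would give as green marks. Bars of CCNT1 and HEXIM1 reach no higher than 2.90%, while that of MNAT1 in OTSSP167 reaches 73.8%.

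Levels between genes were compared as CPM per kilobase of annotated exon. CCNT1 was first in both groups, at 17.1 ± 0.264 in DMSO and 38.6 ± 0.404 CPM per kb in OTSSP167, and its libraries did not overlap those of the next gene. In DMSO the order continued with HEXIM1 (13.4 ± 0.302), CDK7 (12.3 ± 1.48), CCNH (7.86 ± 1.21), MNAT1 (7.37 ± 2.23), CDK13 (6.79 ± 1.35), CDK12 (6.51 ± 2.25), CCNK (5.89 ± 3.95), CDK9 (5.28 ± 1.18) and CCNT2 (3.11 ± 1.81 CPM per kb, SD, n = 3). HEXIM1 and CDK7 overlapped, CDK7 lay above CCNH in every library, and from CCNH down each gene overlapped its neighbour. In OTSSP167 CCNK took the second place at 12.4 ± 2.61 CPM per kb, and CDK9 was last at 3.08 ± 0.812. Every neighbouring pair below CCNT1 overlapped. The overlap of CCNK with CCDC85C leaves its place uncertain in both groups. Exon lengths are the union over the basic transcripts of GENCODE and may differ from the isoforms that NGP cells use.

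Ratios of partner genes within a library do not depend on the scaling between libraries, and 7 such pairs were compared with an exact two-sided permutation test, for which 0.1 is the smallest p that 3 libraries against 3 allow. Counts of CCNK were 0.206, 0.551 and 0.368 of those of CDK12 in DMSO and 1.27, 1.80 and 1.42 in OTSSP167 (difference 2.09 in log2, exact p = 0.1, adjusted 0.35). The overlap with CCDC85C applies to this ratio too. HEXIM1 counts were 6.25, 5.72 and 4.90 times those of HEXIM2 in DMSO and 2.14, 2.42 and 2.58 times in OTSSP167 (difference -1.24 in log2, exact p = 0.1, adjusted 0.35). Antisense transcripts hold 44.4% of the 50-base stretches of HEXIM2 and 13.3% of those of HEXIM1, so this ratio may include their reads. In both pairs the groups did not overlap.

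For the remaining 5 pairs the libraries of the groups overlapped. The ratio of CCNT1 to CCNT2 was 4.47, 16.6 and 4.07 in DMSO and 11.7, 15.2 and 7.98 in OTSSP167 (difference 0.74 in log2, exact p = 0.4), so DMSO replicate 2, with its low CCNT2 count, gave the highest value. Without that library the difference was 1.40 (exact p = 0.1, the smallest possible), and without DMSO replicate 1 or 3 it was 0.45 and 0.38. HEXIM1 to CDK9 went from 4.78, 3.75 and 2.98 to 7.34, 6.27 and 4.34 (0.64, exact p = 0.2). CDK12 to CDK13 differed by 0.0082 in log2 (exact p = 1), CCNH to CDK7 by 0.15 (exact p = 0.8) and MNAT1 to CDK7 by -0.66 (exact p = 0.6); their adjusted p-values were 0.84 to 1.

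**Figure D4:**
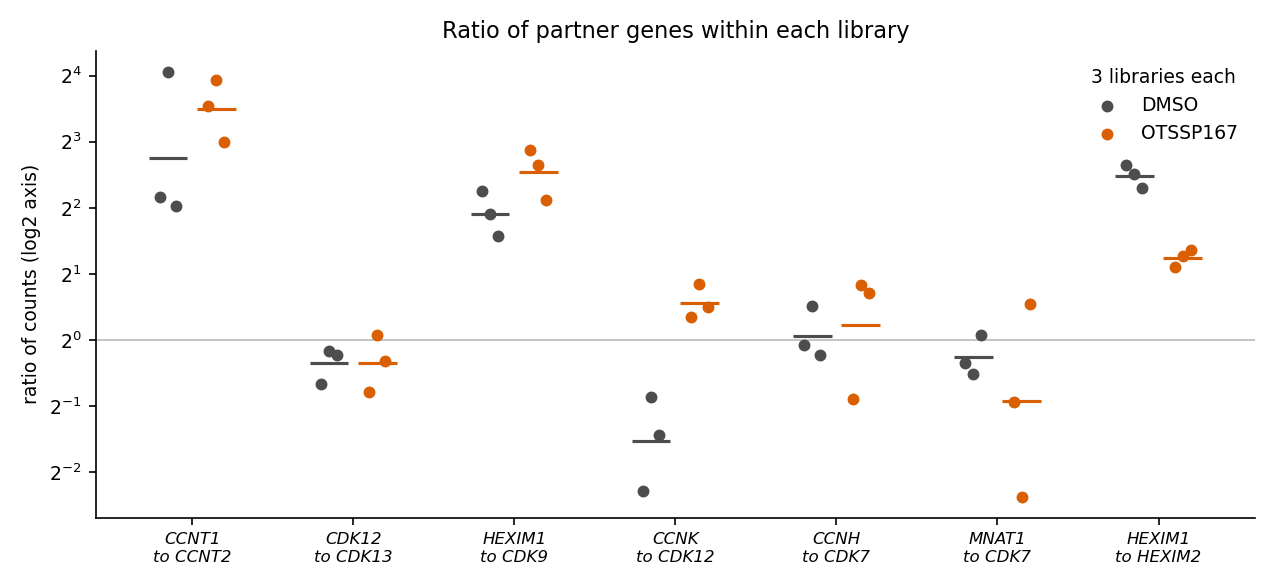
Ratio of the counts of 2 partner genes in each library on a log2 axis, DMSO in grey and OTSSP167 in orange, with geometric means as lines. The groups are apart for CCNK to CDK12 and for HEXIM1 to HEXIM2, and overlap for the other 5 pairs.

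Other genes of the pathway, in 7 lists with 55 tested genes, passed in 20 cases (36.4%, beside 46.1% of all genes), 14 higher and 6 lower, with a median log2 fold change of 0.00013 beside 0.0099 over all genes. Genes named here beyond the rule in the methods were chosen after their values were seen. In the 7SK particle, HEXIM2 rose while LARP7, which binds the 3′ end of 7SK, stood at 57.1 ± 1.23 and 57.6 ± 0.539 CPM (log2 fold change 0.012, 95% CI -0.13 to 0.16), and MEPCE, which caps 7SK, at 80.3 ± 3.84 and 99.3 ± 14.0 CPM (0.31, edgeR adjusted p = 0.0801). MEPCE passed in 4 of 14 alternatives, among them DESeq2 (adjusted p = 0.0463) and edgeR without OTSSP167 replicate 3 (0.0157); the highest value was 0.192.

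Of 10 genes that recruit P-TEFb or form the super elongation complex, 4 rose and 0 fell, with a median of 0.04. EAF1, which binds the ELL elongation factors, rose from 73.8 ± 2.87 to 127 ± 3.50 CPM (0.78, edgeR adjusted p = 0.000255). ELL itself rose by 1.12 and ELL3, at 0.570 and 3.05 CPM, by 2.41 on the log2 scale. AFF1 and AFF4, the scaffolds of the complex, had estimates of -1.64 and -0.43 and did not pass (adjusted p = 0.114 and 0.541, edgeR); AFF1 passed without OTSSP167 replicate 2 (-2.52, 0.0328) and with DESeq2 (0.037), and AFF4 without OTSSP167 replicate 1 (-1.19, 0.023). Over the alternatives the estimates ran from -2.52 to -1.28 and from -1.19 to -0.11, the last without OTSSP167 replicate 2, with adjusted p-values of 0.0328 to 0.254 and 0.023 to 0.876.

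The other lists were mixed. In the TFIIH core 1 of 7 genes rose (GTF2H4, 1.35, edgeR adjusted p = 0.0368) and 2 fell, among them GTF2H5, a small subunit needed for its stability (-0.84, adjusted p = 0.00207), and the helicase ERCC2 (-0.71). The GTF2H4 call was lost whichever DMSO library was left out (0.103, 0.0851 and 0.0989 for replicates 1 to 3); its adjusted p spanned 0.00264 to 0.103, and its estimate was 0.83 without OTSSP167 replicate 2. In the Mediator kinase module 2 of 7 rose, MED13L by 0.59 (edgeR adjusted p = 0.0159) and MED12L by 3.18 (0.0461), and 0 fell; its kinases CDK8 and CDK19 did not pass. MED13L missed the threshold once DMSO replicate 2 was left out (0.0519; span of alternatives 0.000688 to 0.0519). MED12L, at 2.48 ± 2.30 and 22.4 ± 18.3 CPM, missed it once DMSO replicate 1 or 2 or OTSSP167 replicate 1 or 2 was left out (0.113, 0.126, 0.0829 and 0.115; span 0.000779 to 0.14). The count in this module was 1, 0 and 1 without DMSO replicate 1, DMSO replicate 2 and OTSSP167 replicate 1. Of 6 genes for CDK10, CDK11 and their cyclins, 0 passed in edgeR and CDK11B came nearest (1.26, adjusted p = 0.0562), whereas CDK11B passed with DESeq2 (adjusted p = 0.00883), limma-voom (0.0446) and upper quartile scaling (0.0464), and its alternatives spanned 0.00883 to 0.132. CCNL1, a cyclin L gene, had an estimate of 0.60 (edgeR adjusted p = 0.116) and passed in 1 alternative, without DMSO replicate 3 (0.84, adjusted p = 0.0422; span 0.0422 to 0.279). CDK11A and CDK11B are near-identical copies between which reads can be divided.

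Among 13 pausing and elongation factors, 4 rose and 2 fell. LEO1 of the PAF1 complex rose by 0.34 (edgeR adjusted p = 0.00725), WDR61, counted with the same complex, fell from 40.7 ± 4.73 to 17.4 ± 1.63 CPM (-1.23, adjusted p = 0.00111), and SUPT5H, a DSIF subunit phosphorylated by P-TEFb, rose by 0.21 (adjusted p = 0.0191). The SUPT5H call was lost with any 1 DMSO library or OTSSP167 replicate 3 left out (0.0563 to 0.0751; span of alternatives 0.00399 to 0.0751). Without DMSO replicate 2 or OTSSP167 replicate 3, only 3 of the 13 passed. Of 9 phosphatases of the polymerase tail and their cofactors, 2 rose and 2 fell. CTDSP2, a small phosphatase of the tail, rose from 882 ± 28.2 to 1427 ± 4.63 CPM (0.69, edgeR adjusted p = 4.25e-05) and SSU72, which removes serine phosphates from it, fell from 222 ± 24.2 to 134 ± 14.4 CPM (-0.73, adjusted p = 0.0048).

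**Figure D5:**
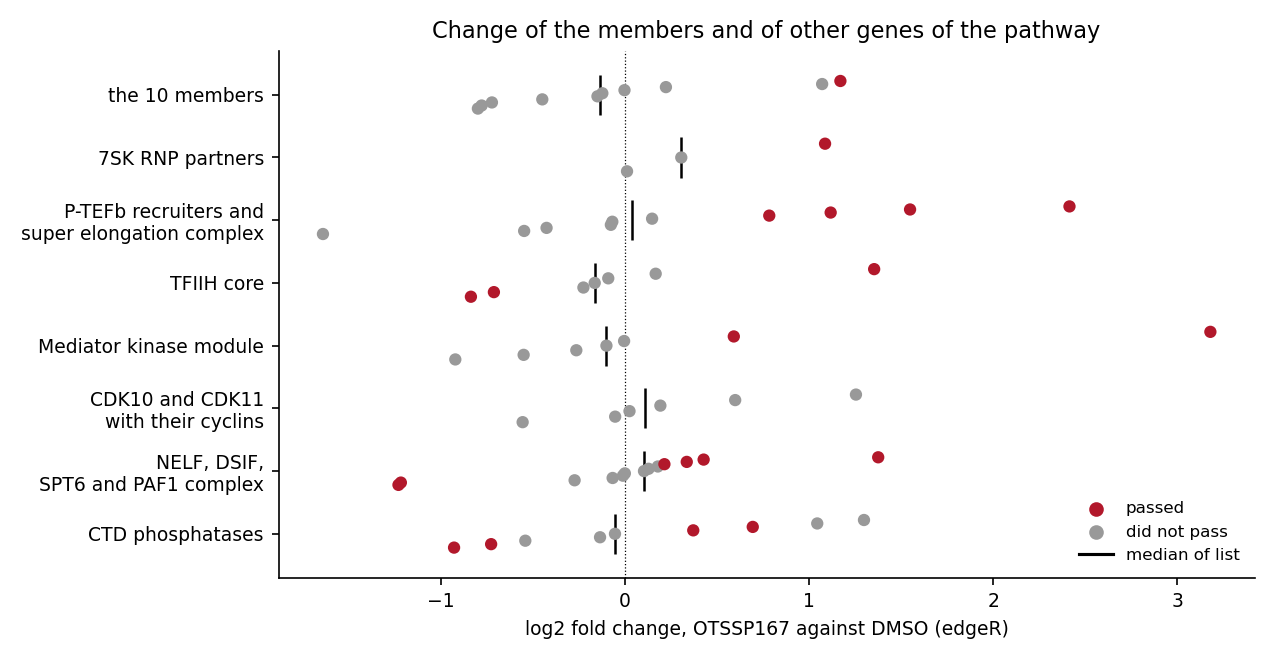
Log2 fold change of each of the 10 members and of the genes in 7 other pathway lists, red where the gene passed edgeR's test and grey where it did not, with the list median as a black line. Changes lie on both sides of 0 in most lists, and the medians run from -0.16 for the TFIIH core to 0.31 for the 7SK partners.

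The genes whose pattern over the 6 libraries was most like that of CCNT1, by Euclidean distance between mean-centred log2 CPM among 9200 genes of at least 10 CPM, were EEF2 (0.0261), TOB2 (0.0522), AP3S2 (0.0527), POC5 (0.0648) and NUFIP2 (0.0661). EEF2, which encodes the translation elongation factor that moves the ribosome along mRNA, rose from 5649 ± 24.9 to 12634 ± 154 CPM (n = 3), a log2 fold change of 1.16. TOB2, an antiproliferative factor, rose from 69.9 ± 2.01 to 161 ± 1.15 CPM.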

How the data were processed

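mRNA was sequenced from 6 NGP libraries, 3 with DMSO and 3 with OTSSP167. The authors deposited whole-number counts per gene symbol. Per the submitters' processing notes, FastQC 0.11.2, HISAT2 2.1.0 and StringTie 1.3.5 were used with GRCh38.p13; the counting tool, annotation and strand setting were not given in the sources used here, and reads of overlapping genes may be divided in an unknown way. Columns named as control were taken as the DMSO libraries of the same number, and 0 columns belonged to other samples. Where a symbol occurred more than once (58 symbols), its plain name went to the row with most counts.

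Counts were analysed in R 4.3.3 with edgeR 4.0.16 (filterByExpr, TMM, robust quasi-likelihood F test of treatment alone, Benjamini-Hochberg over 14402 genes, and glmTreat at 1.5-fold). The fit was tested on simulated data over genes of all levels, where most changes of up to 4-fold were missed. Far fewer genes were changed there than passed in the data, so that share of missed changes does not carry over to the members. A gene that did not pass may still have changed, by as much as its interval allows. A standard error is the log2 fold change divided by the square root of F. Ratios used a pseudocount of 0.5. Alternatives were DESeq2 1.42.0, limma-voom (limma 3.58.1), 3 other scalings, 2 other filters, the replicate block and each library left out. Pairs of replicates differed by chi-square values of 90.3 to 111.2 per gene, far over the 1 of pure counting noise, and none was counted as a duplicate. Positions, exon lengths and shared 50-base stretches come from GENCODE release 29 (GRCh38), promoters from RefSeq. Genes named by rule are the 10 members, HEXIM2, LARP7, MEPCE, the called gene of smallest p in each direction of each other list (or the smallest p where none passed), and the 5 genes most like the called member of largest change. A gene that the rule also names is not reported here. Members and lists were chosen with earlier results of these data known.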

Additional observations from a re-analysis of the deposited data

How the results depend on the processing

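CCNT1 kept its direction and passed in all 14 alternatives, and none of the 10 members lost a call. With DESeq2, CDK9 (-0.76), CDK12 (-0.78) and CDK13 (-0.70) passed as well, which makes 4 members called. Upper quartile scaling moved the median log2 fold change of all genes to 0.11, from 0.0099. The estimate of CCNH near 0 had the other sign with DESeq2 (0.020), DESeq2 size factors in edgeR (0.023), upper quartile scaling (0.10) and at least 1 CPM in all libraries (0.059), as had LARP7 without a low-count filter (-0.0016) and CCDC85C with the 1 CPM filter (0.011) and upper quartile scaling (0.050); for all of these the cause was not tested.

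Whether replicate numbers pair the samples could not be decided. Same-numbered libraries had small correlations, 0.0115 to 0.0408, between their deviations from the group means across genes. Each library's own number gave its highest value, but no reference for unpaired libraries was computed. With the replicate block, CDK9 passed (-0.79, adjusted p = 0.0307), so 2 members were called where 4887 genes passed in place of 6638. GTF2H4 did not pass with the block (1.23, adjusted p = 0.0573), which left 0 TFIIH core genes higher. Also with the block, 1496 genes passed beyond 1.5-fold in place of 2826, and 1 Mediator kinase gene passed in place of 2. Tested against a fold of 2, 1192 genes passed.

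Leaving out each library gave log2 fold changes of -0.50 to 0.045 for CDK7, -0.14 to 0.20 for CCNH, -1.05 to 0.031 for MNAT1, -1.002 to -0.62 for CDK9, -0.20 to 0.52 for CCNT2, -1.07 to -0.63 for CDK12, -0.95 to -0.55 for CDK13 and -0.011 to 0.021 for LARP7. Log2 ratio differences ran from 0.38 to 1.40 for CCNT1 to CCNT2, -0.20 to 0.23 for CDK12 to CDK13, -0.15 to 0.71 for CCNH to CDK7 and -1.39 to 0.064 for MNAT1 to CDK7. The count of members called was 1 to 2, and of list genes called 1 to 2 (7SK partners), 0 to 1 (CDK10 and CDK11), 0 to 3 (Mediator kinase module) and 3 to 6 (pausing and elongation factors). With the other settings, 2 of the 7SK partners passed with DESeq2, upper quartile scaling and the filter of 1 CPM; 1 of the CDK10 and CDK11 genes with DESeq2, limma-voom and upper quartile scaling; and 4 Mediator kinase genes with DESeq2 and 1 with the filter of 1 CPM. Depth limits ELL3 more than the members, which had 173 counts or more in every library.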

Other observations

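The libraries that stood apart differed from gene to gene. At least 1 group ranged over 2-fold for 4 of the 10 members (MNAT1, CCNT2, CDK12 and CCNK), beside 22.8% of the 8201 tested genes within the members' range of mean CPM. The low library was OTSSP167 replicate 2 for MNAT1, DMSO replicate 2 for CCNT2 and DMSO replicate 1 for CDK12 and CCNK. For CDK13, which ranged under 2-fold, DMSO replicate 1 was also the lowest control (53.2, 77.0 and 77.0 CPM in replicates 1 to 3). Across those 8201 genes, each library was the lowest of its group by over 2-fold in 1.78 to 2.57% of genes, so no library was low far more often than the others.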
